A study of Mus musculus with 12 samples.

Results

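The 8 genes described here encode secreted proteins of the extracellular matrix, measured in gonadal white adipose tissue (gWAT), the fat depot beside the gonads. They are Fn1 (fibronectin), 5 genes of matricellular proteins (Sparc, Postn, Tnc, Thbs1 and Thbs2) and 2 genes of elastic fibres (Fbn1 and Eln). The members are defined by their gene symbols. All 8 were found in the table of 32238 genes, and all 8 were among the 20297 genes tested.

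RNA sequencing covered 12 mouse libraries in 4 groups of 3 biological replicates (rep). MKO HFD mice carry a knockout of Bnip3 that is specific to macrophages, and they received a high-fat diet (HFD) for 12 weeks from the age of 8 weeks. WT HFD mice had the same diet without the knockout. MKO NCD mice carry the knockout and received a normal chow diet (NCD) over the same weeks, and WT NCD mice had chow without the knockout. Bnip3 encodes a mitochondrial outer membrane protein that directs damaged mitochondria to autophagy. The driver that makes the knockout specific to macrophages, the alleles of the WT mice, and the strain and sex of the mice are not given in the sources used here. The design asks what the diet does to this tissue, what the macrophage knockout does on each diet, and whether the diet acts alike in both genotypes.

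Fibronectin is a fibrillar glycoprotein on which cells first assemble a matrix, and cells bind it through integrins. Matricellular proteins sit in the matrix without being its main scaffold, and they change how cells attach to it, how collagen is laid down and how growth factors such as TGF-beta are released. In elastic fibres, fibrillin microfibrils (Fbn1) form the frame on which elastin (Eln) is deposited and crosslinked. In fat, these proteins are made largely by fibroblasts and progenitors in the stroma, and macrophages also make some of them, fibronectin and thrombospondin-1 included.

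The 2 elastic fibre genes share a sequence feature that matches a microRNA family. That family was already known to repress both genes, so the matches in them are not an independent result. MicroRNAs of the miR-29 family, known repressors of elastin, fibrillin-1 and collagen genes in mouse, share 1 seed, and its complement TGGTGCT was searched for on the coding strand of each member's 3′ UTR. The mature sequences, from RefSeq, have the seed (bases 2 to 8) in capitals:
mmu-miR-29a-3p: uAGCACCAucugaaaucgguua
mmu-miR-29b-3p: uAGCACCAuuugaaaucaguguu
mmu-miR-29c-3p: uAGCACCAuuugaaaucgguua
Seed matches stood in the 3′ UTRs of Fbn1, with 2, and Eln, with 3, and in none of the other 6 members. Of 21020 protein-coding genes, 12.2% had a match. Among genes with a 3′ UTR within 20% of that member's length the share was 9.5% for Fbn1 (992 bases) and 11.4% for Eln (1188 bases). The 3 matches followed by an A are printed with the match in capitals, from the transcripts Fbn1-201 and Eln-201, with bases counted from the start of the 3′ UTR:
Fbn1, bases 406 to 412: ttctgttgtctgttTGGTGCTagtaaattc
Eln, bases 38 to 44: gacctcatcaacgtTGGTGCTactgcttgg
Eln, bases 285 to 291: tctccaagggaaatTGGTGCTacatgttgg
A match is a description of these letters and not a measured site, and microRNA levels were not analysed here.

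Before the members, 3 features of the libraries bear on the values. Library totals were 52.9 to 72.7 M counts, and the smallest count of a member in any library was 358, for Tnc in WT NCD rep 2, so counting error is small beside the spread between replicates. WT NCD libraries held epididymis transcripts that the other 9 nearly lacked: 8 epididymis markers summed to 6354 to 7582 CPM (counts relative to the TMM-scaled library size) in WT NCD, against at most 20.4 CPM in MKO NCD, 0.836 CPM in WT HFD and 0.364 CPM in MKO HFD. Comparisons that use the WT NCD libraries, the interaction and the averages included, cannot tell diet or genotype apart from this difference in epididymis transcripts. MKO NCD rep 2 read 0 for 57.3% of genes, against 15.6 to 38.3% in the other libraries. For 702 genes it read 0 where no other library had under 100 counts, and no other library had such a gene. Without MKO NCD rep 2 the members called were 6 for HFD against NCD in WT and 2 for MKO against WT on HFD, as with it, and 0 for HFD against NCD in MKO, against 1 with it. Adipocyte markers, 8 in number, summed to 23825 to 27522 CPM in MKO HFD and 18215 to 22865 CPM in WT HFD, so the MKO libraries lay wholly above the WT ones, and to 22026 to 26765 CPM in MKO NCD and 13378 to 22913 CPM in WT NCD. Bnip3 itself was not lower in MKO tissue (log2 fold change 0.17, SE 0.17, adjusted p = 0.786 on HFD and 0.42, SE 0.17, adjusted p = 0.210 on NCD), and since other cells of the tissue make it, whole-tissue counts do not check a knockout restricted to macrophages.

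The 8 genes differ widely in transcript level. On the scale of TPM, which corrects for transcript length, Sparc averaged 3172 over the 12 libraries. Postn averaged 128 TPM and Fn1 109 TPM, and Fbn1, Eln and Thbs1 lay close together at 40.4, 38.3 and 36.9 TPM. Thbs2 averaged 17.1 TPM and Tnc 5.51 TPM. WT HFD had the highest group mean in CPM for 7 of the 8 genes, and Thbs1, with its highest mean in WT NCD, was the exception. For 5 genes (Sparc, Postn, Tnc, Fbn1 and Eln) the order of group means was the same, WT HFD, MKO HFD, MKO NCD and WT NCD from high to low. Neighbours in that order often overlapped: the ranges of MKO HFD and WT HFD shared values for Sparc, Tnc, Fbn1 and Eln, and those of MKO NCD and WT NCD for Tnc and Fbn1.

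**Figure D1:**
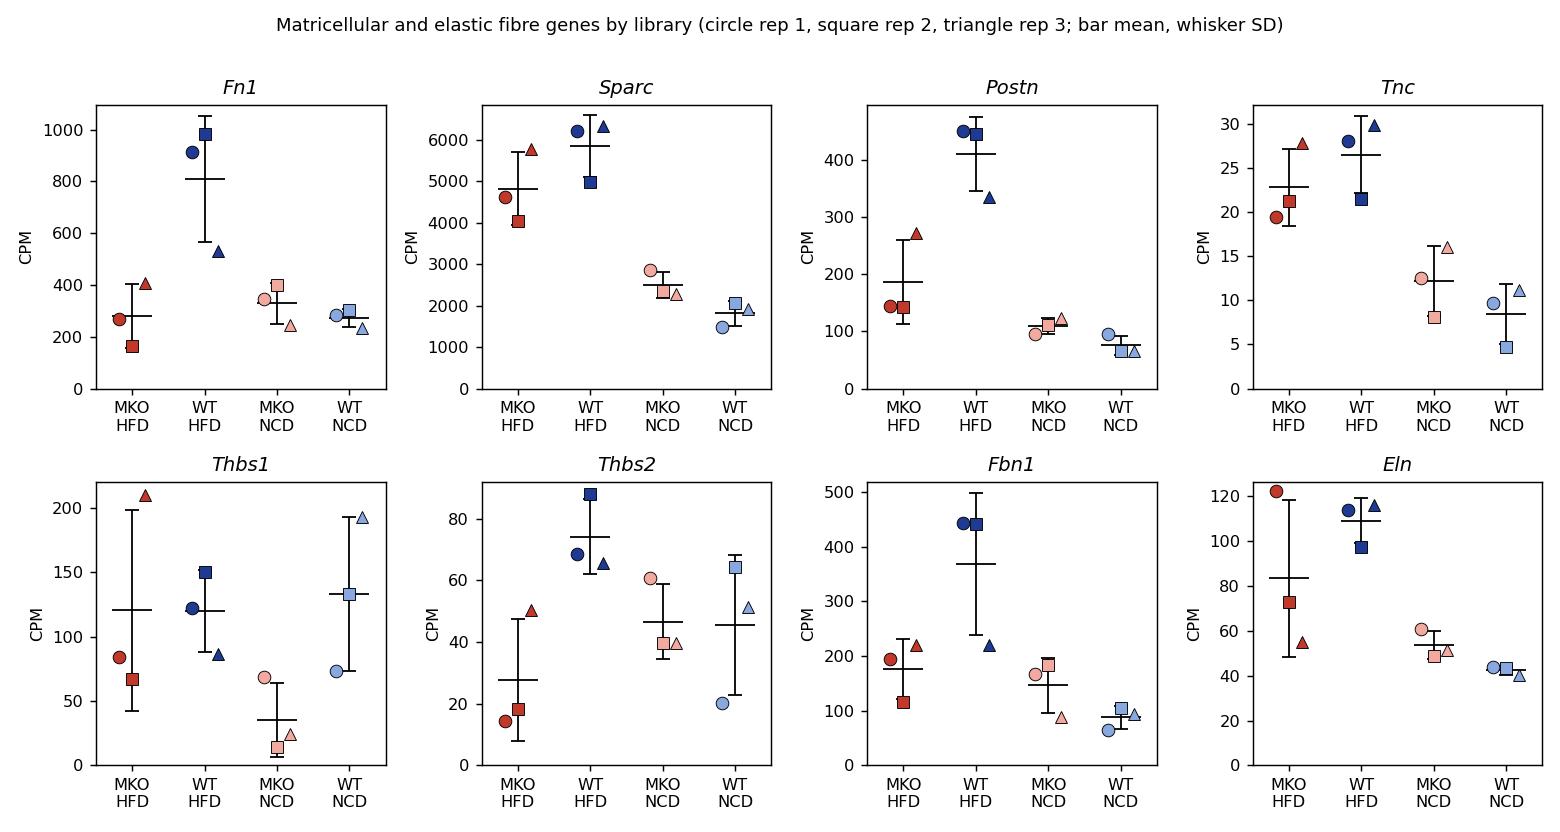
CPM of each member in every library (circle rep 1, square rep 2, triangle rep 3), with the mean as a bar and the SD of 3 replicates as whiskers, for MKO HFD, WT HFD, MKO NCD and WT NCD from left to right. WT HFD has the highest mean in each panel but that of Thbs1, where WT NCD has it, and within MKO HFD rep 3 is the highest library in all panels but that of Eln.

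In WT mice HFD went with higher transcripts of 6 of the 8 genes: Sparc, Postn, Tnc, Fn1, Fbn1 and Eln. Thbs1 and Thbs2 did not pass the test. The test was the quasi-likelihood test of edgeR on counts, with p adjusted by the Benjamini-Hochberg method over all 20297 genes and a threshold of 0.05. Of all genes tested, 17.8% passed it in this comparison and 9.5% passed it upward. The median log2 fold change was 1.60 over the 8 members and -0.09 over all genes tested. The ranges of HFD and NCD libraries in WT did not overlap for 7 members, all of them higher on HFD, against 22.8% of all genes. All 6 calls held in each of the 22 alternative settings run, the removal of any 1 library included.

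Among the matricellular genes Postn, whose product periostin promotes collagen crosslinking, had the largest fold change in this comparison. It read 451, 447 and 336 CPM in WT HFD libraries, against 95.2, 66.6 and 66.0 CPM in WT NCD libraries. The lowest HFD value lay more than 3 times above the highest NCD value, and the log2 fold change was 2.44 (SE 0.27, adjusted p = 0.000313). The 250 bases before 1 of its 2 RefSeq transcription starts (GRCm38.p6, chr3:54360857-54361106, plus strand) are shown because of that change, with the 1 occurrence of the letters TATAAA, at bases -26 to -21 from the start, in capitals:
Postn: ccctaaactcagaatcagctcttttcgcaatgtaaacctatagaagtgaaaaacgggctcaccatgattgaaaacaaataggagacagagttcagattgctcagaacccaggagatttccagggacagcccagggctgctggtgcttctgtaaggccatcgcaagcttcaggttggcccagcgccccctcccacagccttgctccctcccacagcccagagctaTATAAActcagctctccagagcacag
TATAAA was searched for on both strands, and 12.4% of 32851 promoter windows of the same length hold it. The window before the other Postn start (chr3:54359017-54359266) has none, and windows of Tnc and Thbs2 also hold it. Such a match is a description and says nothing of which factors bind there.

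Sparc encodes osteonectin, a collagen-binding glycoprotein made by stromal cells and adipocytes. It read 6212, 4987 and 6334 CPM in WT HFD and 1480.0, 2053 and 1919 CPM in WT NCD. These groups stood well apart, with a log2 fold change of 1.69 (SE 0.18, adjusted p = 0.000313). Tnc encodes tenascin-C, which appears where tissue is remodelled. Its level was low, at 28.1, 21.5 and 29.8 CPM in WT HFD and 9.64, 4.66 and 11.1 CPM in WT NCD. All HFD libraries still lay above all NCD libraries, and the log2 fold change was 1.64 (SE 0.34, adjusted p = 0.00688).

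The thrombospondin genes behaved otherwise. Thbs1, whose product activates latent TGF-beta and binds CD36 and CD47, read 122, 150 and 86.9 CPM in WT HFD, against 73.0, 133 and 193 CPM in WT NCD. The 3 HFD values lay within the NCD range (log2 fold change -0.15, SE 0.58, adjusted p = 0.905). Thbs2, a thrombospondin that limits angiogenesis and takes part in collagen fibril assembly, read 68.7, 88.0 and 65.7 CPM in WT HFD, against 20.4, 64.5 and 51.5 CPM in WT NCD. Its groups just missed each other, and the difference did not pass the test (0.71, SE 0.48, adjusted p = 0.361).

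Fn1 read 912, 982 and 532 CPM in WT HFD and 284, 302 and 234 CPM in WT NCD. WT HFD rep 3 was lower than its 2 group mates and still above all NCD libraries, and the log2 fold change was 1.56 (SE 0.33, adjusted p = 0.00828). Fbn1 showed the same division within WT HFD, with 444, 442 and 219 CPM, against 64.7, 106 and 93.9 CPM in WT NCD (2.06, SE 0.36, adjusted p = 0.00317). Eln was the most even of the 8 within these groups, at 114, 97.6 and 116 CPM in WT HFD and 43.7, 43.7 and 40.1 CPM in WT NCD (1.36, SE 0.24, adjusted p = 0.00292). The coefficient of variation of Eln was 9.24% in WT HFD and 4.84% in WT NCD.

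Markers of other cells moved with this comparison as well. The 9 macrophage markers summed to 2490 to 3705 CPM in WT HFD and 372 to 917 CPM in WT NCD, and 7 of the 9 passed the test, all higher on HFD. Of 10 fibroblast and progenitor markers 5 were higher and 1 lower, with sums of 6375 to 8002 CPM in WT HFD and 7284 to 14251 CPM in WT NCD. In both groups these sums consisted mostly of Gsn, which was between 3375 and 11728 CPM there. Smooth muscle and mural markers (9) summed to 583 to 822 CPM in WT HFD, and to 12109, 1682 and 563 CPM in WT NCD. Of these markers 1 was higher and 4 were lower on HFD, and without WT HFD rep 1 or WT HFD rep 2 none of the 4 was called. In the WT NCD libraries, in the same order as these sums, Eln was at 43.7, 43.7 and 40.1 CPM. Of 8 adipocyte markers 1 was higher and 3 were lower on HFD (1 and 1 without WT HFD rep 2). Of 8 mesothelium markers 3 were lower, with a median log2 fold change of -0.08 over the list. Krt8, Krt18 and Krt19 read between 28.1 and 118 CPM in the WT NCD libraries, which held epididymis transcripts, and at most 11.4 CPM in WT HFD. Every other marker of that list overlapped between the 2 groups. Of 7 endothelium markers 1 was higher, which was 0 without either of WT HFD rep 3 and WT NCD rep 2, and which was 3 when MKO NCD rep 2 was left out, and 1 of 5 platelet markers was lower. Of 7 epididymis markers tested, 6 were lower on HFD, and in WT mice their presence cannot be told apart from the diet. In whole tissue, more cells of a type and more RNA per cell cannot be told apart, and the part of these cell types in the members' values was not tested.

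In MKO mice HFD was associated with 1 call among the 8, Sparc. It read 4629, 4052 and 5786 CPM in MKO HFD and 2849, 2346 and 2275 CPM in MKO NCD. The groups were well separated, and the log2 fold change was 0.95 (SE 0.18, adjusted p = 0.0280). In all, 2.01% of the genes tested passed in this comparison, and 1.04% passed upward. The median log2 fold change was 0.70 over the 8 members and 0.06 over all genes. The Sparc call was lost without MKO NCD rep 2 (log2 0.91, adjusted p = 0.0655), without MKO NCD rep 3 (0.89, adjusted p = 0.105), and without each of the 3 MKO HFD libraries (0.80 to 1.07, adjusted p from 0.0533 to 0.0974).

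Postn read 144, 144 and 273 CPM in MKO HFD and 95.9, 110.5 and 123 CPM in MKO NCD. The groups did not overlap, but the log2 fold change of 0.76 (SE 0.26) had an adjusted p of 0.169. Tnc, at 19.5, 21.2 and 27.8 CPM in MKO HFD and 12.5, 8.11 and 16.0 CPM in MKO NCD, did not overlap between the diets either, and it also missed the threshold (0.90, SE 0.33, adjusted p = 0.202). With Sparc these were the only 3 members whose MKO groups did not overlap, all 3 higher on HFD, against 15.1% of all genes.

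The elastic fibre genes and Fn1 overlapped between the diets in MKO mice. Fbn1 read 195, 116 and 220.1 CPM in MKO HFD and 166, 183 and 89.2 CPM in MKO NCD (log2 fold change 0.27, SE 0.35, adjusted p = 0.762). Eln read 123, 72.7 and 55.2 CPM in MKO HFD and 60.7, 48.7 and 51.4 CPM in MKO NCD (0.64, SE 0.23, adjusted p = 0.202). Only MKO HFD rep 1 had an Eln level like that of WT HFD mice.

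Fn1 was at 268, 165 and 409 CPM in MKO HFD and 344, 400.3 and 244 CPM in MKO NCD, so both sets spanned much the same range (-0.23, SE 0.32, adjusted p = 0.781). Thbs2 was at 14.3, 18.3 and 50.4 CPM in MKO HFD and 60.8, 39.6 and 39.6 CPM in MKO NCD (-0.75, SE 0.48, adjusted p = 0.465). Thbs1 had 84.0, 67.3 and 210.2 CPM in MKO HFD and 68.4, 14.4 and 24.1 CPM in MKO NCD, with a log2 fold change of 1.76 (SE 0.60, adjusted p = 0.178). Without MKO NCD rep 1, the one chow library near the HFD values, that change was 2.65 with an adjusted p of 0.0487.

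On HFD, the MKO tissue had lower transcripts of Fn1 and Postn than WT tissue, and the other 6 genes did not pass the test. This comparison shares its WT HFD libraries with that of the diets in WT. Of all genes, 3.57% passed in it and 2.24% passed downward. The median log2 fold change was -0.72 over the 8 members and 0 over all genes tested. Fn1, at 268, 165 and 409 CPM in MKO HFD and 912, 982 and 532 CPM in WT HFD, had a log2 fold change of -1.53 (SE 0.33, adjusted p = 0.0318). Postn, at 144, 144 and 273 CPM in MKO HFD and 451, 447 and 336 CPM in WT HFD, had one of -1.14 (SE 0.26, adjusted p = 0.0371). For both, the highest MKO library lay below the lowest WT library.

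Both calls depended on single libraries. They were lost without MKO HFD rep 1 (adjusted p = 0.140 for Fn1 and 0.162 for Postn), MKO HFD rep 2 (0.129 and 0.182), WT HFD rep 1 (0.0996 and 0.114), WT HFD rep 2 (0.152 and 0.163) or MKO NCD rep 1 (0.0513 and 0.0555). The Postn call was lost without MKO NCD rep 3 too, at 0.0539. Over all 23 alternatives the log2 fold change stayed between -1.90 and -1.26 for Fn1 and between -1.51 and -0.98 for Postn. Without MKO HFD rep 3 both were larger, at -1.90 for Fn1 (adjusted p = 0.0101) and -1.51 for Postn (0.00457).

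Thbs2 and Fbn1 had changes of like size that did not pass in edgeR. Thbs2, at 14.3, 18.3 and 50.4 CPM in MKO HFD and 68.7, 88.0 and 65.7 CPM in WT HFD, was the third gene whose groups did not overlap (log2 fold change -1.42, SE 0.49, adjusted p = 0.167). Groups lay apart downward for 17.3% of all genes in this comparison. Without MKO HFD rep 3 the Thbs2 change was -2.19 and passed, with an adjusted p of 0.0199. Fbn1, at 195, 116 and 220.1 CPM in MKO HFD and 444, 442 and 219 CPM in WT HFD, overlapped only through WT HFD rep 3 (-1.06, SE 0.35, adjusted p = 0.153). DESeq2 called both (adjusted p = 0.0293 for Thbs2 and 0.0296 for Fbn1), as did limma-voom with sample weights (0.00569 and 0.0173). In the authors' deposited table the signed fold change of MKO HFD against WT HFD was -2.89 for Fn1 (adjusted p = 0.00571), -2.20 for Postn (7.49e-05), -2.09 for Fbn1 (0.00199) and -2.68 for Thbs2 (0.0682).

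The remaining 4 members had smaller differences on HFD. Sparc was at 4629, 4052 and 5786 CPM in MKO HFD and 6212, 4987 and 6334 CPM in WT HFD (-0.28, SE 0.18, adjusted p = 0.559). Tnc differed by -0.21 (SE 0.33, adjusted p = 0.906), with groups that overlapped. Eln differed by -0.39 (SE 0.23, adjusted p = 0.513): 2 of its 3 MKO libraries lay below all WT libraries and MKO HFD rep 1 lay above them. Without MKO HFD rep 1 the Eln difference was -0.77 (adjusted p = 0.0720), and without MKO HFD rep 3 it was -0.16 (adjusted p = 0.897). Thbs1 was close to 0 in log2 fold change (0.01, SE 0.58, adjusted p = 1), with a wide standard error that left changes of more than 2-fold in either direction within 2 SE.

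**Figure D2:**
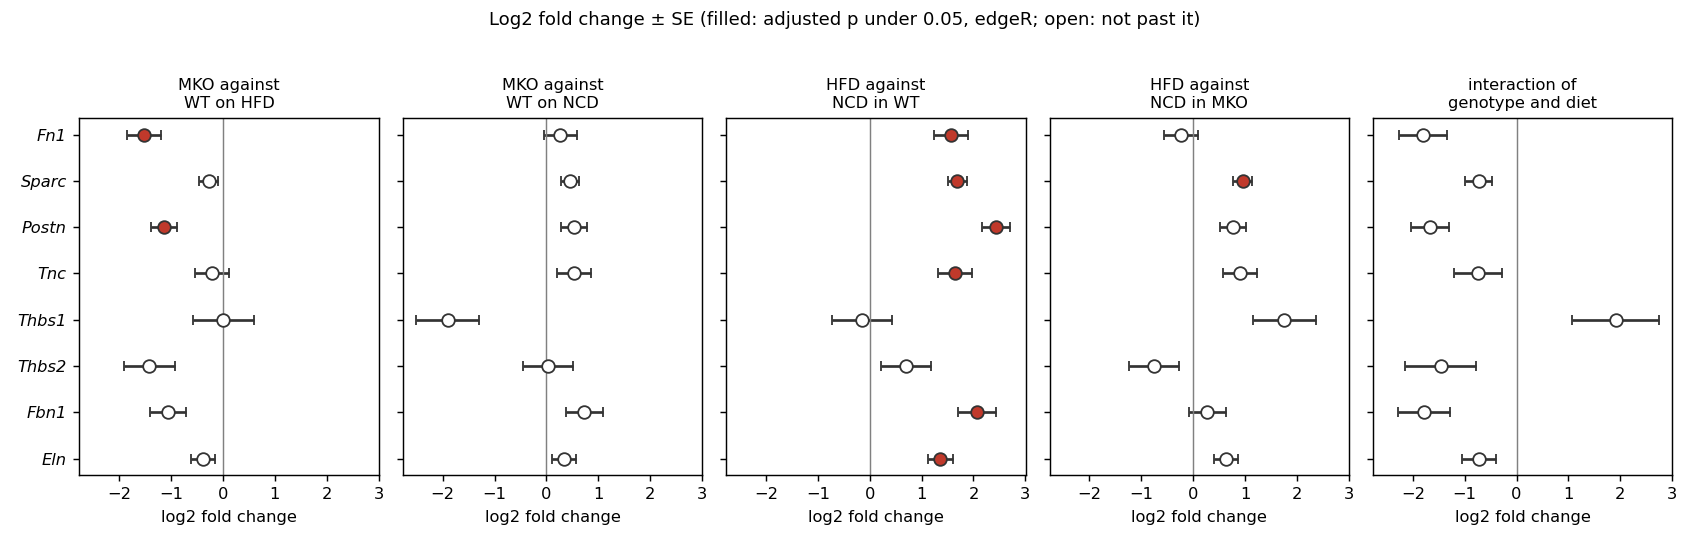
Log2 fold change (x axis) with its SE as whiskers for each of the 8 genes (rows) in 5 comparisons; filled points passed an adjusted p of 0.05 in edgeR. In WT mice 6 genes are filled on the higher side, in MKO mice Sparc alone is, and on HFD Fn1 and Postn are filled on the lower side.

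Within MKO HFD, rep 3 lay above its group's mean log2 level in 7 of the 8 genes, with a median deviation of 0.49, and rep 2 lay below it in all 8, with a median of -0.34. Eln was the exception, with its highest value in rep 1. In other groups MKO NCD rep 1 and WT HFD rep 1 also lay above their group's mean in 7 of the 8, with smaller medians of 0.19 and 0.10, and whether libraries differ so over all genes was not tested. The sum of the 9 macrophage markers was 606 CPM in MKO HFD rep 1, 431 CPM in rep 2 and 1004 CPM in rep 3, and 2490 to 3705 CPM in WT HFD. None of the 9 markers was at 0 in any library, and 7 of the 9 were lower in MKO HFD than in WT HFD, with a median log2 fold change of -2.16 over the list. That count was 0 without MKO HFD rep 1, MKO HFD rep 2 or WT HFD rep 2, 1 without WT HFD rep 1 and 4 without MKO NCD rep 1. In each of these fits 8 of the 9 had an unadjusted p under 0.05, and the median was between -2.19 and -1.92. Fibroblast and progenitor markers summed to 7288 to 7877 CPM in MKO HFD and 6375 to 8002 CPM in WT HFD, sums that consisted mostly of Gsn. Over the 10 markers the median log2 fold change was -0.49, and 6 had an unadjusted p under 0.05 in either direction. In the main test 2 of 10 were lower, which was 0 without MKO HFD rep 1, MKO HFD rep 2 or WT HFD rep 2, and 1 when WT HFD rep 1 was left out. Of the 8 adipocyte markers 4 were higher in MKO HFD and none lower (median log2 fold change 0.72), which was 1 without WT HFD rep 1 or WT HFD rep 2 and 0 without MKO HFD rep 1 or MKO HFD rep 2. The part of these cell types in the lower Fn1 and Postn levels was not tested.

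Over the 12 libraries the Pearson correlation of a member's log2 CPM with the log2 macrophage sum was 0.91 for Fn1, 0.85 for Fbn1, 0.83 for Postn, 0.71 for Thbs2, 0.70 for Sparc, 0.63 for Eln, 0.48 for Tnc and 0.38 for Thbs1. With the endothelium sum Tnc correlated at 0.81, more than with the macrophage sum, and Fn1 at -0.04. With the fibroblast and progenitor sum 7 of the 8 correlated below 0, the lowest being Tnc at -0.75, and Thbs2 was at 0.18. That sum consisted mostly of Gsn, which was lower in every HFD library than in any chow library. Of the 10 markers in it, 5 were higher and 1 was lower on HFD in WT mice. With the epididymis sum the lowest was Sparc at -0.76, and with the adipocyte sum the members ran from -0.35 (Thbs1) to 0.47 (Sparc). They ran from -0.71 to -0.04 with mesothelium, from -0.60 to -0.02 with mural and smooth muscle, and from -0.11 to 0.70 with platelet markers. These are descriptions over libraries that share diet and genotype, and WT HFD has the highest group mean of the macrophage sum and of 7 of the 8 genes. Among the members themselves Fn1 and Fbn1 ran together both over all libraries (0.86) and as deviations from group means (0.85). Thbs1 and Thbs2 did so within groups (0.78) and not over all libraries (0.30). Sparc and Postn showed the reverse, with 0.87 over all libraries and 0.00 within groups.

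**Figure D3:**
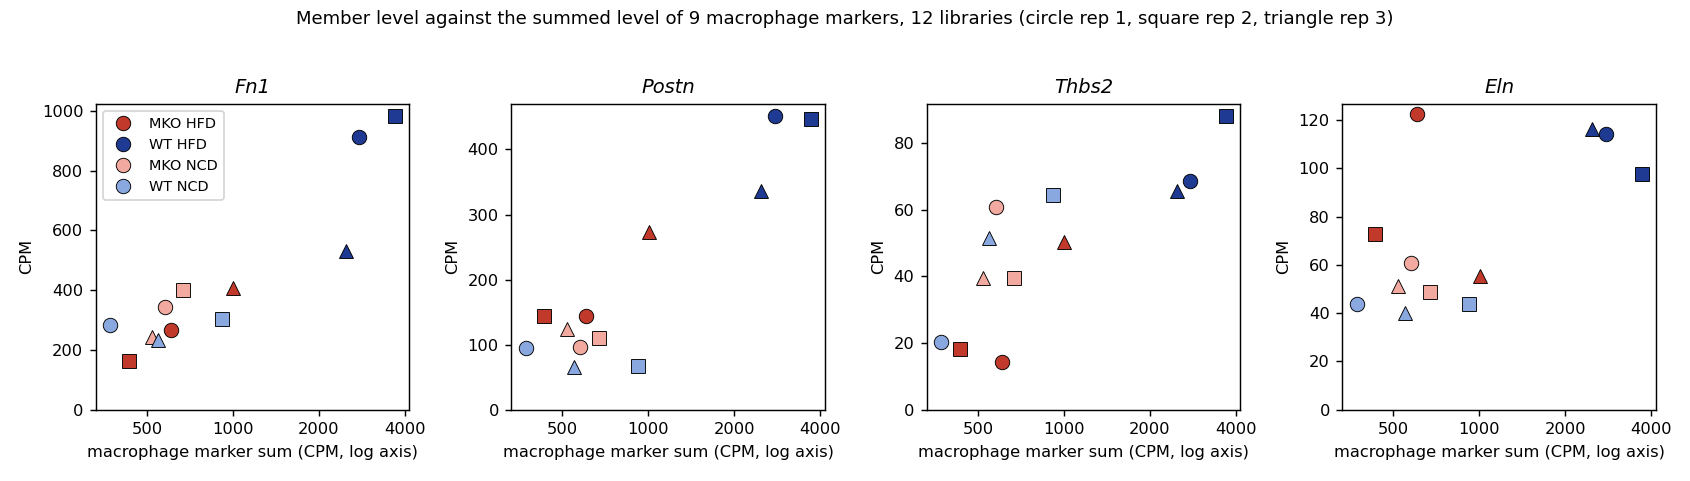
CPM of Fn1, Postn, Thbs2 and Eln (y axes) against the summed CPM of 9 macrophage markers (x axis, log scale) in the 12 libraries, by group (colour) and replicate (shape). The WT HFD libraries sit apart at marker sums of 2490 to 3705 CPM; for Eln, MKO HFD rep 1 reaches 123 CPM at a marker sum of 606 CPM.

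On chow, no member passed the test between MKO and WT mice. Of all genes 4.35% did, 2.22% upward and 2.13% downward. The unadjusted p was under 0.05 for 2 of the 8, Sparc and Thbs1. Such values were common among all genes, since in edgeR Sparc ranked 3085 and Thbs1 ranked 1874 of 20297 genes. Limma-voom with and without sample weights also called 0 members, and DESeq2 called 1, Thbs1. The median log2 fold change was 0.39 over the members and -0.14 over all genes tested. Thbs1 had the largest fold change, at 68.4, 14.4 and 24.1 CPM in MKO NCD and 73.0, 133 and 193 CPM in WT NCD. Its groups missed each other by the narrow gap between MKO rep 1 and WT rep 1, where 15.6% of all genes lay apart downward, and the log2 fold change was -1.90 (SE 0.61, adjusted p = 0.103). Its adjusted p was 0.0103 with DESeq2, 0.0375 without MKO NCD rep 1, and ranged up to 0.272 over the 22 alternatives. In the authors' deposited table the signed fold change of Thbs1 on chow was -3.91 with an adjusted p of 0.0225.

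The other 7 genes were higher or near level in MKO NCD. Sparc, Postn and Eln had groups that did not overlap, all 3 higher in MKO NCD, against 9.63% of all genes upward. Sparc was at 2849, 2346 and 2275 CPM in MKO NCD and 1480.0, 2053 and 1919 CPM in WT NCD (log2 fold change 0.45, SE 0.18, adjusted p = 0.187). Postn was at 95.9, 110.5 and 123 CPM in MKO NCD and 95.2, 66.6 and 66.0 CPM in WT NCD (0.53, SE 0.25, adjusted p = 0.279). Eln, at 60.7, 48.7 and 51.4 CPM in MKO NCD and 43.7, 43.7 and 40.1 CPM in WT NCD, differed less (0.33, SE 0.23, adjusted p = 0.486). Fbn1 (0.73, SE 0.35, adjusted p = 0.284), Tnc (0.53, SE 0.33, adjusted p = 0.425), Fn1 (0.27, SE 0.32, adjusted p = 0.699) and Thbs2 (0.04, SE 0.48, adjusted p = 0.974) overlapped. On chow the macrophage markers summed to 520 to 671 CPM in MKO and 372 to 917 CPM in WT mice. None of the 9 passed the edgeR test, 0 had an unadjusted p under 0.05, and DESeq2 and limma-voom with and without weights called 0. Of the adipocyte markers 2 were higher in MKO NCD, which was 0 without WT NCD rep 1 or MKO NCD rep 2, 2 without WT NCD rep 2 and 1 without any 1 of the other 9 libraries. Of the endothelium markers 1 was higher, which was 0 without WT NCD rep 1, WT NCD rep 2, MKO NCD rep 1 or MKO NCD rep 3. Of the mesothelium markers 2 were lower, which was 1 without WT NCD rep 1 or 2, MKO NCD rep 3, or any HFD library other than MKO HFD rep 1. The median log2 fold change over that list was 0.30. Krt8, Krt18 and Krt19, whose WT NCD levels are given above, read at most 19.6 CPM in MKO NCD, and every other marker of the list overlapped. Over the 9 mural and smooth muscle markers the median log2 fold change was -3.50 (-1.29 without WT NCD rep 1), and 8 had an unadjusted p under 0.05. Of these markers edgeR called 1, which was higher. DESeq2 called 1 higher and 5 lower, and limma-voom with sample weights called 3 higher and 0 lower. The edgeR call was lost without WT NCD rep 2 or 3, MKO NCD rep 1 or 3, or any HFD library. Without WT NCD rep 3, 5 mural markers were lower. A platelet marker was lower, and that call was lost without WT NCD rep 1 or 2, MKO NCD rep 1 or 3, WT HFD rep 1, or MKO HFD rep 1 or 2. Of 7 epididymis markers tested, 3 were lower in MKO NCD, and on chow their presence cannot be told apart from the genotype. The part of these cell types in the chow values was not tested.

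Whether the diet effect differs between genotypes was tested as an interaction, and none of the 8 passed. Of all genes 0.261% did. The unadjusted p was under 0.05 for 5 members, and the median log2 difference of the diet effects (MKO minus WT) was -1.10 over the members and 0.12 over all genes. Differences were -1.67 for Postn (SE 0.36, adjusted p = 0.0695), -1.80 for Fn1 (SE 0.46, adjusted p = 0.103) and -1.79 for Fbn1 (SE 0.50, adjusted p = 0.126). Thbs1 alone had a positive one, of 1.91 (SE 0.83, adjusted p = 0.357). DESeq2 called 3 of the 8 (Postn at an adjusted p of 0.00122, Fn1 at 0.00645 and Fbn1 at 0.0160), and limma-voom called Postn, at 0.0457 without and 0.0184 with sample weights. Without MKO HFD rep 3 the edgeR test called Postn (-2.05, adjusted p = 0.0101) and Fn1 (-2.17, adjusted p = 0.0363). The difference was negative for Postn, Fn1 and Fbn1 in each of the 21 alternatives run.

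Averaged over genotypes, 5 genes were higher on HFD (Postn 1.60, Sparc 1.32, Tnc 1.27, Fbn1 1.17 and Eln 1.00 in log2 fold change, adjusted p from 0.000133 to 0.00834), where 21.3% of all genes passed. Averaged over diets, no member passed between MKO and WT, where 7.26% of all genes did. The unadjusted p was under 0.05 there for 2 members, Fn1 (-0.63, adjusted p = 0.127) and Thbs1 (-0.95, adjusted p = 0.207). Such values were common among all genes, since in edgeR Fn1 ranked 3031 and Thbs1 ranked 4386 of 20297 genes. DESeq2 and limma-voom with sample weights each called Fn1, and limma-voom without weights called 0 members.

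Genes around the 8 members were read in 5 lists. In WT mice on HFD, 8 of 18 genes of elastic fibre assembly were higher than on chow and none lower, where 9.5% of all genes were higher and 17.8% were called in either direction. The median log2 fold change was 1.08 over this list and -0.09 over all genes. Lox and Loxl2, which crosslink elastin and collagen, rose by 2.41 (SE 0.28, adjusted p = 0.000431) and 2.27 (SE 0.26, adjusted p = 0.000418). Fbln5, which guides elastin onto microfibrils, rose by 1.44 (SE 0.13, adjusted p = 0.000132), at 92.6, 87.9 and 94.7 CPM in WT HFD and 27.8, 37.3 and 36.6 CPM in WT NCD. Of 14 matrix receptors, 6 were higher and none lower (median 0.68). They included Cd44, a hyaluronan receptor (3.10, SE 0.44, adjusted p = 0.00103), and Sdc1, syndecan-1 (1.51, SE 0.23, adjusted p = 0.00157). Itgb5, a chain of a vitronectin-binding integrin, rose by 0.78 (SE 0.12, adjusted p = 0.00188). Without MKO NCD rep 2 the receptor count was 10, of which 9 were higher.

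Of 15 other matricellular genes, 4 were higher and 1 lower in WT HFD than in WT NCD, with a median of 0.41. For this comparison 9.5% of all genes were higher and 17.8% were called in either direction. Ccn5 (3.26, SE 0.58, adjusted p = 0.00324) and Tnxb, tenascin-X (1.33, SE 0.23, adjusted p = 0.00260), were among the higher ones. The other 2, named after their values were seen, were Spp1, osteopontin, and Tgfbi. Smoc1, a relative of Sparc, fell by 0.93 (SE 0.16, adjusted p = 0.00287). The median over 11 genes of TGF-beta signalling was 0.28, and 3 of them were higher: Tgfb1, the ligand (1.49, SE 0.12, adjusted p = 8.95e-05), Tgfbr2, its receptor (0.85, SE 0.15, adjusted p = 0.00278), and Smad3, its transcription factor (0.52, SE 0.16, adjusted p = 0.0470). The TGF-beta count of 3 ran from 2 to 4 over the 22 alternatives. Of 8 proteases that can degrade elastin or activate such proteases, 6 were higher and 1, Mmp9 (named after its value was seen), was lower, with a median of 1.82. Ctsk, a cathepsin with strong elastin-cleaving activity, rose by 3.12 (SE 0.35, adjusted p = 0.000369), Ctsl by 1.97 (SE 0.22, adjusted p = 0.000356) and Mmp14 by 1.32 (SE 0.20, adjusted p = 0.00169).

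On HFD, no gene of the 5 lists was higher in MKO than in WT tissue. Lower were 4 of 18 genes of elastic fibre assembly, 2 of 15 other matricellular genes, 2 of 14 receptors, 2 of 11 genes of TGF-beta signalling and 5 of 8 elastin-degrading proteases, where 2.24% of all genes were. The medians, in the same order, were -0.71, -0.73, -0.61, -0.25 and -1.68, against 0 for all genes. Loxl2 read 51.7, 28.5 and 47.8 CPM in MKO HFD and 76.7, 83.3 and 119 CPM in WT HFD, a log2 fold change of -1.12 (SE 0.25, adjusted p = 0.0375). Efemp2, which brings Lox to elastin (-0.84, SE 0.19, adjusted p = 0.0345), and Ltbp1, which anchors latent TGF-beta to microfibrils (-0.61, SE 0.14, adjusted p = 0.0369), fell too. So did Fbln2, named after its value was seen. Tgfbi (-0.99, SE 0.23, adjusted p = 0.0454) and Ccn5 (-2.29, SE 0.55, adjusted p = 0.0490) were the 2 matricellular genes.

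Sdc1 fell by 1.79 (SE 0.23, adjusted p = 0.00945), at 13.3, 11.7 and 21.2 CPM in MKO HFD and 58.8, 60.4 and 41.1 CPM in WT HFD. Cd44, which macrophages also carry, fell by 1.76 (SE 0.42, adjusted p = 0.0448), and Itga4, at -1.51 (SE 0.37), had an adjusted p of 0.0507. Tgfb1 fell by 0.89 (SE 0.12, adjusted p = 0.00945) and Tgfbr2 by 0.67 (SE 0.15, adjusted p = 0.0327). Among the proteases Mmp14, a membrane protease that activates Mmp2, fell by 1.62 (SE 0.21, adjusted p = 0.00945). Mmp2 fell by 1.74 (SE 0.28, adjusted p = 0.0124) and Ctsk by 2.22 (SE 0.34, adjusted p = 0.0113). Ctss and Ctsl, named after their values were seen, made up the 5. The macrophage marker sum, given above, was lower in the same libraries, and its part in these list changes was not tested.

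These counts in MKO against WT on HFD rested on single libraries. Without MKO HFD rep 1, and likewise without MKO HFD rep 2, all 5 counts were 0. The elastic fibre count was also 0 without WT HFD rep 1, WT HFD rep 2 or MKO NCD rep 1, was 1 without MKO HFD rep 3, WT HFD rep 3 or MKO NCD rep 3, and was 2 without WT NCD rep 2. The matricellular count was 0 without any 1 of the WT HFD libraries, MKO NCD rep 1, MKO NCD rep 3 or WT NCD rep 3, and when WT NCD rep 2 was left out it was 1. The receptor count was 1 without WT HFD rep 1 or 2, MKO NCD rep 1 or 3, or any 1 of the WT NCD libraries, and 4 without MKO NCD rep 2. The TGF-beta count was 1 without WT HFD rep 1 or 2, or MKO NCD rep 1 or 3. The protease count was 1 without WT HFD rep 2, and when WT HFD rep 1 was left out it was 3.

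**Figure D4:**
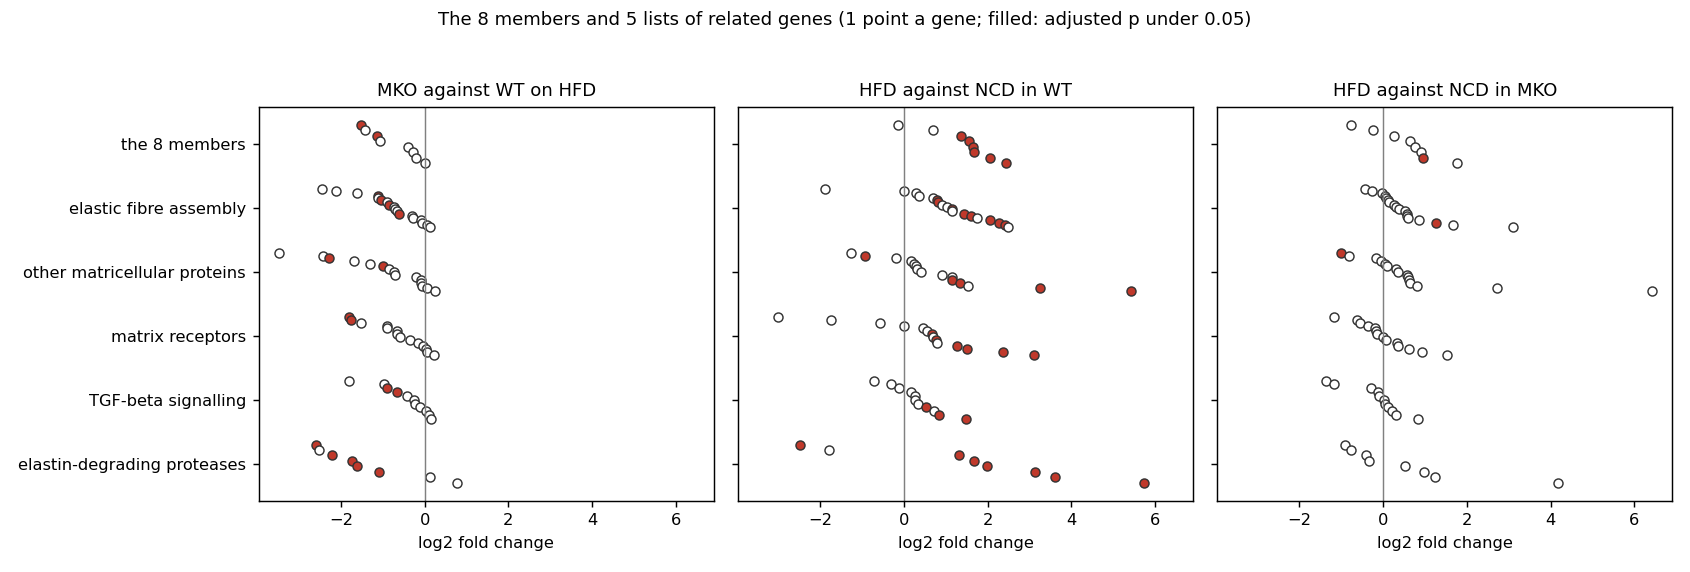
Log2 fold change (x axis) of the 8 members and of the tested genes of 5 lists (rows, 1 point a gene, sorted within a row), filled where the adjusted p was under 0.05 in edgeR. The WT HFD libraries enter both the left and the middle panel; no list gene is filled on the higher side in MKO against WT on HFD, and in MKO mice Lox and Smoc1 are the only filled list genes for the diet.

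For the diet in MKO mice 2.01% of all genes were called, 1.04% upward. Among the list genes the diet gave 1 call in elastic fibre assembly, Lox (1.26, adjusted p = 0.0419), 1 among other matricellular genes, Smoc1 (-0.99, adjusted p = 0.0149), and none in the other 3 lists. Of the genes in those 3 lists, 4 of 14 receptors, 2 of 11 TGF-beta genes and 4 of 8 proteases had an unadjusted p under 0.05. By that p the member Tnc, at 0.0195 in edgeR, ranked 1952 of 20297 genes. In the same lists DESeq2 called 2, 1 and 0 genes, limma-voom 0 in each, and limma-voom with sample weights 1, 1 and 0. The Lox call was lost without any 1 of the 3 MKO HFD or 3 WT HFD libraries, MKO NCD rep 2 or 3, or WT NCD rep 2, and the count was 2 without WT NCD rep 1. The Smoc1 call was lost without any 1 of the MKO HFD libraries or MKO NCD rep 3. The receptor count was 1 without WT NCD rep 1. Between MKO and WT on chow 4.35% of all genes were called, 2.22% upward. On chow, Fbln5 (0.57, adjusted p = 0.0348) and Ltbp3 (0.97, adjusted p = 0.0269, named after its value was seen) were higher in MKO than in WT tissue, and the other 4 lists had no call. In those 4, the unadjusted p was under 0.05 for 4 of 15 matricellular genes, 4 of 14 receptors, 3 of 11 TGF-beta genes and 0 of 8 proteases. Such a p was common among all genes, since the member Sparc, at an edgeR p of 0.0284, ranked 3085 of 20297 by it. In the same lists and order DESeq2 called 1, 3, 0 and 0 genes, limma-voom 0, 2, 0 and 0, and limma-voom with sample weights 1, 1, 1 and 0. The elastic fibre count on chow was 0 without WT NCD rep 1, and 1 without any 1 of the 6 HFD libraries, WT NCD rep 2, MKO NCD rep 1 or MKO NCD rep 2. The matricellular count was 1 without WT NCD rep 3, and the receptor count was 1 without WT NCD rep 3, MKO HFD rep 1 or MKO HFD rep 3.

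The genes lie on 7 chromosomes of mm10, in RefSeq coordinates of GRCm38.p6. Fbn1 (chr2:125300594-125506485, minus strand) and Thbs1 (chr2:118111876-118127133, plus strand) are on the same chromosome and more than 7 Mb apart. The others are Fn1 (chr1:71585473-71653280, minus), Postn (chr3:54359267-54391041, plus), Tnc (chr4:63959785-64047015, minus), Eln (chr5:134702595-134747368, minus), Sparc (chr11:55394159-55420080, minus) and Thbs2 (chr17:14665500-14694262, minus). Genes on the opposite strand overlap 5 of them. Of these partners, Apol7d (over Fn1), 8030451A03Rik (over Tnc) and Gm30003 (over Eln) had at most 0.0550, 0.454 and 0.329 CPM in any library, and Gm29233 (over Thbs1) and Gm9913 (over Fbn1) were not analysed here. The library kit keeps strand, per the labels' protocols, but the strand setting of the counting is not given in the sources used here.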

How the data were processed

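RNA was extracted with Trizol and made into stranded mRNA libraries, per the labels' protocols. The tools listed, with no role given, are HISAT2 2.1.0 and StringTie 1.3.4d, besides DESeq2, Trimmomatic and bcl2fastq 2.20.0, and the build is mm10, per the submitters' processing notes. Counting settings are not given in the sources used here. Tests used the raw read counts of the 1 deposited table, and levels between genes used the authors' TPM, both named so per the file headers. Its FPKM, its normalized log2 values and log2 group means, and its test statistics and standard errors (score columns) were made by the authors and are not reported. The authors' deposited signed fold changes (score) and p-values are printed for 5 values only and named as theirs.

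In R 4.3.3, edgeR 4.0.16 (TMM, filterByExpr, robust quasi-likelihood F test) was fitted once to all 12 libraries by group, with Benjamini-Hochberg adjustment over 20297 genes and a threshold of 0.05. SE is the size of the log2 fold change over the square root of F. Replicates are biological, per the series' design text, and they differed beyond counting noise (chi-square per degree of freedom of 61.2 or more), so none was merged. Positions, promoters and microRNAs are from RefSeq (GRCm38.p6) by Entrez identifier, and 3′ UTRs are from GENCODE M21 (GRCm38). Promoter windows were found for 5 of the 8 members. The test was checked on simulated counts.

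The members and lists were chosen with earlier results of these data known. The genes named are the 8 members and, in each of 5 lists, the 3 with the smallest p for HFD against NCD in WT and for MKO against WT on HFD. For each member the gene with the highest Pearson correlation of log2 CPM (prior count 2) is named too. Marker lists are given as sums, counts and medians, except Gsn, Krt8, Krt18 and Krt19, named after their values were seen. Alternatives were other size factors, other count filters, a fit without robust spread, DESeq2 1.42.0, limma-voom (limma 3.58.1) with and without sample weights, only the libraries compared, a block by replicate number, and each library left out in turn. A fit without the 3 WT NCD libraries was added after seeing the data. Plots were made in matplotlib 3.10.9 (Python 3.11.15).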

Additional observations from a re-analysis of the deposited data

Results flagged for a closer look

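For 2 genes of the related lists the effect of the diet differed between genotypes by the interaction test of edgeR (adjusted over all genes). Of all genes 0.261% passed that test, and the 2 are named here because they passed it. Tgfb1, the TGF-beta ligand that many matrix genes respond to, had a difference of diet effects (MKO minus WT) of -1.27 on the log2 scale (SE 0.17, adjusted p = 0.0225). It read 40.4, 35.5 and 37.8 CPM in MKO HFD and 65.1, 79.7 and 66.0 CPM in WT HFD. On chow it read 29.1, 35.5 and 32.9 CPM in MKO and 26.8, 23.9 and 24.2 CPM in WT, so the groups lay apart on HFD downward and on chow upward. Groups lay apart downward on HFD for 17.3% of all genes and upward on chow for 9.63%. Mmp14, the membrane protease that activates Mmp2, had a difference of -1.66 (SE 0.29, adjusted p = 0.0489), with 49.3, 47.8 and 74.9 CPM in MKO HFD and 155, 175 and 199 CPM in WT HFD. On chow Mmp14 read 64.6, 85.1 and 68.6 CPM in MKO and 56.8, 83.6 and 71.2 CPM in WT.

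The count of called TGF-beta genes in this interaction was 0 without MKO NCD rep 3, WT HFD rep 1, WT HFD rep 2, MKO HFD rep 1 or MKO HFD rep 2, and 2 without MKO HFD rep 3. The count of called proteases was 0 without any 1 of the 3 WT NCD libraries, the 3 WT HFD libraries, MKO NCD rep 1, MKO NCD rep 3, MKO HFD rep 1 or MKO HFD rep 2. It was 2 without MKO NCD rep 2 and 5 without MKO HFD rep 3. Macrophage markers summed to 431 to 1004 CPM in MKO HFD and 2490 to 3705 CPM in WT HFD, and their part in these 2 differences was not tested.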

How the results depend on the processing

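Over 1224 recomputed log2 fold changes of the members, 1179 kept direction and side of the threshold, 25 passed it newly, 20 lost it, and no called value changed sign. The 6 calls of HFD against NCD in WT held throughout. The number of members called changed by more than 1.5 times as follows. DESeq2 called 1 in MKO against WT on NCD (0 in the main test), 4 on HFD (2), 2 in HFD against NCD in MKO (1), 3 in the interaction (0) and 1 in MKO against WT averaged over diets (0). Limma-voom called 1 in the interaction, and with sample weights 1 there, 4 in MKO against WT on HFD and 1 in MKO against WT averaged over diets. With only the libraries compared, HFD against NCD in MKO had 0. With the replicate block, MKO against WT on HFD had 0 (adjusted p = 0.0821 for Fn1 and 0.0751 for Postn) and HFD against NCD in MKO 0 (Sparc, 0.0658), and of the markers in MKO against WT on HFD 3 macrophage (7) and 2 adipocyte (4) genes were called. The numbers are not shown to pair libraries: deviations of same-numbered libraries correlated between -0.14 and 0.16, and 0 of 12 libraries were closest to their own number in all other groups. With 1 library left out, the counts ran from 0 to 1 for MKO against WT on NCD, 0 to 3 on HFD, 0 to 2 for HFD against NCD in MKO, 0 to 2 for the interaction, 0 to 2 for MKO against WT and 5 to 6 for HFD against NCD, each averaged. Without the 3 WT NCD libraries the counts on HFD and for the diet in MKO were 2 and 1. Over all genes, calls ran from 53 to 2349 (882 in the main test) for MKO against WT on NCD, 7 to 3676 (725) on HFD, 1884 to 6789 (3610) for the diet in WT, 41 to 1781 (408) for the diet in MKO, 2 to 1162 (53) for the interaction, 614 to 3432 (1473) for MKO against WT averaged and 2836 to 6892 (4322) for the diet averaged. The 7 calls on HFD were those without MKO HFD rep 1, and the 6789 for the diet in WT those without MKO NCD rep 2. The cause of these shifts was not tested. Of the calls in MKO against WT on NCD, 51.0% were higher with TMM and 40.7% with RLE size factors. Depth limits none of the members, whose lowest count was 358.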

Other observations

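Of 11209 protein-coding genes with a mean of at least 5 CPM, those whose log2 CPM ran closest to a member over the 12 libraries differed from member to member. P3h1, a collagen prolyl hydroxylase, was closest to Sparc (Pearson 0.99), Fam234a to Postn (0.98), Ahnak2 to Fn1 (0.97) and Fstl1, a secreted relative of Sparc, to Fbn1 (0.97). Cd93, a receptor of endothelial and myeloid cells, was closest to Tnc (0.96), Bub1b, a mitotic checkpoint kinase, to Eln (0.93), Stt3a, a subunit of the enzyme that attaches glycans in the endoplasmic reticulum, to Thbs1 (0.90) and Aldh1a3, an enzyme of retinoic acid synthesis, to Thbs2 (0.89). Closest to the mean of the 8 members' z-scores were Ctsl and Gusb, both lysosomal enzymes, and Fap, a protease of activated fibroblasts (0.99, 0.98 and 0.98). These are the highest of many correlations over libraries that share diet and genotype, and are given as descriptions.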
